A study of Homo sapiens with 6 samples.

Results

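The replication-dependent histone genes encode the linker histone H1 and the core histones H2A, H2B, H3 and H4 that package newly copied DNA. Their members were taken by name, as gene symbols that begin with HIST1H, HIST2H, HIST3H or HIST4H, a rule that reads no measured value. The deposited tables held 77 rows for 58 such symbols. Where a symbol had several rows, the row of highest mean gene body value stood for it. HIST2H2AA3 and HIST2H2AA4, HIST2H3A and HIST2H3C, and HIST2H4A and HIST2H4B had identical values and were counted once each, which left 55 genes of 12364 with distinct values. Of these, 6 encode H1, 13 H2A, 15 H2B, 12 H3 and 9 H4. The HIST1 cluster on chromosome 6 held 43 of them, and the HIST2, HIST3 and HIST4 loci on chromosomes 1 and 12 held the other 12. The names also bring in HIST1H1T and HIST3H3, which encode testis histones, and HIST2H2BC, which RefSeq lists under the pseudogene symbol H2BC20P.

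The assay was GRO-seq (global run-on sequencing): polymerases already engaged on genes are allowed to elongate in nuclei outside the cell, and the RNA they label there is read out. A375 cells, an established human melanoma line, were exposed for 48 h to 25 µM A771726, to 25 µM leflunomide or to the solvent DMSO, with 2 libraries per group and 6 in all. Opening of the isoxazole ring turns the prodrug leflunomide into A771726, also called teriflunomide, which blocks dihydroorotate dehydrogenase and with it the making of pyrimidine nucleotides.

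Most histone genes are small and lack introns. They are transcribed mainly in S phase, when the cyclin E and CDK2 kinase phosphorylates NPAT in nuclear structures called histone locus bodies. Their messenger RNAs end in a stem-loop bound by SLBP in place of a poly(A) tail, and histone messenger RNA is lost when DNA synthesis stops. Many H2A and H2B genes lie head to head and share the DNA between their start sites. In bulk cultures, fewer cells in S phase and less transcription per cell cannot be told apart.

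The values were the authors' group means of promoter density, gene body density and traveling ratio, which is promoter density over gene body density. Single library values could be recovered from the means for 42 of the 55 genes in all 6 libraries, and a library is numbered where its identity was known. For the other genes in that group of 42 the values of a group form a pair of unknown order. Levels of different genes are compared as deposited densities, whose scaling by length is not stated in the labels. The depth of the libraries is not given. A promoter read was worth 0.0241 and 0.0313 density units with A771726, 0.0347 and 0.0376 with leflunomide, and 0.0438 and 0.052 in DMSO. Equal promoter densities therefore rested on the fewest reads in DMSO. Over 3468 genes with every library known, the median gene body density was 0.0275 and 0.0224 with A771726, 0.0374 and 0.0348 with leflunomide, and 0.0403 and 0.0346 in DMSO, so the A771726 libraries lay below the other 4. Over all 8655 genes past the filter on low values, the median log2 change of gene body density was −0.52 with A771726 and −0.06 with leflunomide, each against DMSO. Changes are therefore also given relative to that median. Of 10 melanocyte lineage symbols looked up, 5 had values, and TYR, DCT, TYRP1 and S100B were among those without. SOX10 had mean gene body densities of 0.273, 0.33 and 0.329 with A771726, leflunomide and DMSO, and MITF had 0.0155, 0.0226 and 0.0123. PMEL, a melanosome gene, had 0.0171, 0.0223 and 0.0103 and PAX3 had 0.033, 0.0283 and 0.0398 in the same groups. MLANA, a melanosome antigen gene whose mean lay below the filter, had 0.0046, 0.00485 and 0.0152.

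To show the DNA that drives these genes, the 250 bases before the start site are printed for 1 gene of each class. They come from the RefSeq promoter table for the build GRCh38.p14, whereas the deposited values rest on hg18. HIST1H1B (current symbol H1-5) was read from chr6:27867589-27867838 on the minus strand, HIST1H2AB (H2AC4) from chr6:26033619-26033868 on the minus strand, HIST1H2BM (H2BC14) from chr6:27814772-27815021 on the plus strand, HIST1H3B (H3C2) from chr6:26032100-26032349 on the minus strand and HIST1H4F (H4C6) from chr6:26240143-26240392 on the plus strand. Each is written 5′ to 3′ in the direction of the gene. Capitals mark TATAAA on the given strand, and CCAAT, the octamer ATTTGCAT and the H1 box AAACACAA on either strand.
HIST1H1B: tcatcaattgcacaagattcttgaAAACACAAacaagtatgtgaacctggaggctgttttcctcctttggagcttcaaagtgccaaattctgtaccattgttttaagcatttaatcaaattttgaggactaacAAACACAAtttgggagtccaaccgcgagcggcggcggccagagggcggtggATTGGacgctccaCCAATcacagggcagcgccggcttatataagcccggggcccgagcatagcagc
HIST1H2AB: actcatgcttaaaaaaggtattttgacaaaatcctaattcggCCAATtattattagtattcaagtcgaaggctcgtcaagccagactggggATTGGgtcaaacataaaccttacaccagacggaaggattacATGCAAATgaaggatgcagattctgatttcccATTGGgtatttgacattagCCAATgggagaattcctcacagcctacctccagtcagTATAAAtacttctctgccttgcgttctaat
HIST1H2BM: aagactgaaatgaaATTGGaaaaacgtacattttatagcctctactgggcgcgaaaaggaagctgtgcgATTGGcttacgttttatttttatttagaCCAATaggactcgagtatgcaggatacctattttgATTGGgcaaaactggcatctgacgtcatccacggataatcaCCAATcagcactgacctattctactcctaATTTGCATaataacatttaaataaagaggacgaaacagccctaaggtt
HIST1H3B: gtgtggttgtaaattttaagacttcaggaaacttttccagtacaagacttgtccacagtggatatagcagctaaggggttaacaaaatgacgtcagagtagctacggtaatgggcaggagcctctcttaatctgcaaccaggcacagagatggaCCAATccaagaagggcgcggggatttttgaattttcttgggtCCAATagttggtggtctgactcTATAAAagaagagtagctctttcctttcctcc
HIST1H4F: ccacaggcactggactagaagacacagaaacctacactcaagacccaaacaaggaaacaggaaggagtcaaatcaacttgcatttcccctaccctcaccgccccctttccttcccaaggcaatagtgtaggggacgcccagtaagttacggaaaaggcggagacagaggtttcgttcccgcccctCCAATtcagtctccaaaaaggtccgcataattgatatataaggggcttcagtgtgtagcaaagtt

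The table held 51 of the 55 promoters, and HIST1H3J, HIST1H4A, HIST1H4C and HIST2H2BC were not among them. The search covered the table's whole window of 300 bases, which runs from 250 bases before to 50 after the start. CCAAT, read on both strands, stood in 90.2% of the histone promoters and in 34.6% of all 35116 promoters of the table. It was present in all 6 H1, 13 H2A, 14 H2B and 11 H3 promoters and in 2 of 7 H4 promoters. TATAAA, read on the given strand, stood in 54.9% of histone promoters and in 7.33% of all. The octamer ATTTGCAT stood in 39.2% against 1.77%, in 9 of 13 H2A promoters, 10 of 14 H2B promoters and 1 of 11 H3 promoters. That H3 promoter was HIST1H3D, whose listed window is the same as that of HIST1H2AD, so the same stretch was counted in both classes. The H1 box AAACACAA stood in 4 of 6 H1 promoters and in none of the other classes, which is 7.84% of histone promoters against 1.55% of all, and HIST1H1B above carries it at a pair of places. These are matches of letters and not mapped binding sites. CCAAT was searched apart from the other motifs, and none of the 4 motifs contains another.

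Gene body density was lower with A771726 than in DMSO at most histone genes, and lower than the change shared by all genes. The summed mean density of the 55 genes was 6.94 with A771726, 9.83 with leflunomide and 14.8 in DMSO. With A771726 the median log2 change was −1.08, against −0.52 over all genes tested. The change was below 0 at 53 of 55 histone genes (85.6% of all genes tested), and 33 of 55 were at least 2-fold lower (18.4% of all genes). At least 2-fold higher was 1 of 55 (0.739% of all). Relative to the median of all genes, 46 of 55 lay below it, 18 at least 2-fold (5.7% of all genes) and 1 at least 2-fold above it (3.43%). These counts rest on group means and carry no test.

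With leflunomide the histone genes lay below DMSO although the median gene hardly moved. The median log2 change was −0.64, against −0.06 over all genes tested. The change was below 0 at 48 of 55 genes (55.4% of all genes), with 16 of 55 at least 2-fold lower (4.38% of all) and 1 at least 2-fold higher (1.83%). Relative to the median of all genes, 45 of 55 lay below it, 15 of them at least 2-fold (3.78% of all), and 1 lay at least 2-fold above it (2.22%). Both compounds were set against the same DMSO libraries, so the 2 comparisons are not independent of each other.

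**Figure D1:**
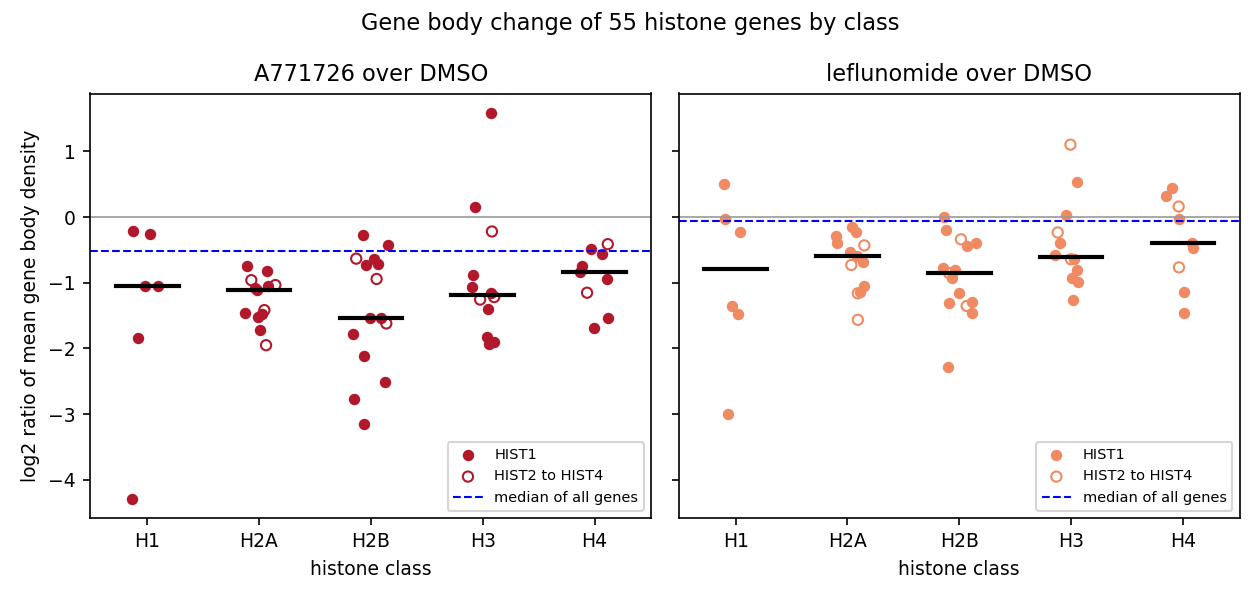
Log2 ratio of mean gene body density to DMSO for 55 histone genes, by class, with A771726 on the left and leflunomide on the right. Each dot is a gene, filled for HIST1 and open for HIST2 to HIST4, black bars are class medians, the dashed line is the median of all genes, and most dots lie below it in both panels. The lowest H1 dot is HIST1H1A, which is listed at 0 with A771726, so its position is set by the pseudocount of 0.00225.

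Where single libraries were recovered, the test across all genes gave no call at this number of libraries. Among 42 histone genes, limma (Benjamini-Hochberg over 4966 genes) called 0 with A771726 against DMSO (0% of all genes), with a smallest adjusted p of 0.0898. A fit over 3468 genes with every library known held 15 histone genes. Leaving out A771726 library 1 left 1 library in that group, the lower of the pair at HIST1H3B and HIST1H2AK. Their log2 changes against DMSO were then −2.99 and −2.22. With all 6 libraries, all 42 estimates were below 0 (88.7% of all genes), with a median of −1.27. At an unadjusted p under 0.05, 31 of 42 were lower (22.4% of all genes) and 0 were higher (0.242%). At 35 of 42 both A771726 libraries lay below both DMSO libraries (56% of all genes), and at 0 of 42 both lay above (1.97%). With leflunomide limma also called 0 of 42 (0% of all), with a smallest adjusted p of 0.903. Here 39 of 42 estimates were below 0 (55.3% of all genes), 12 at an unadjusted p under 0.05 (3.2%), with 0 higher (1.49%). Both leflunomide libraries lay below both DMSO libraries at 24 of 42 genes (21.3% of all) and above both at 0 (14.2%). Recovery needs promoter reads in every group, so genes with an empty promoter are missing from these 42. The p-values measure the spread between these libraries, since the labels name duplicates and no separate cultures.

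The linker histone genes, which bind the DNA between nucleosomes, differed among themselves. HIST1H1E, the H1 gene with the highest density, had pairs of 0.348 and 0.414 with A771726, 0.412 and 0.46 with leflunomide and 0.527 and 0.358 in DMSO. The groups overlapped, and the limma log2 change was −0.19 with A771726 (95% interval −0.88 to 0.50, adjusted p = 0.676) and 0.00 with leflunomide (−0.69 to 0.69, adjusted p = 0.999). HIST1H1B, which carries the H1 boxes printed above, had 0.0524 and 0.0484 with A771726, 0.0477 and 0.084 with leflunomide and 0.203 and 0.17 in DMSO (libraries 1 and 2 of each group). All 4 libraries with a compound lay below both DMSO libraries, by a limma log2 change of −1.84 with A771726 (SE 0.359, adjusted p = 0.126) and −1.52 with leflunomide (SE 0.359, adjusted p = 0.936).

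HIST1H1C had 0.0715 and 0.131 with A771726, 0.0849 and 0.0789 with leflunomide, and 0.242 and 0.182 in DMSO. Again no library with a compound reached the DMSO libraries, with limma log2 changes of −1.10 with A771726 (adjusted p = 0.173) and −1.33 with leflunomide (adjusted p = 0.95). HIST1H1D, the remaining somatic H1 gene recovered in all libraries, had means of 0.131 with A771726, 0.134 with leflunomide and 0.157 in DMSO. HIST1H1A was listed at 0 with A771726 and at 0.00325 with leflunomide, whereas its DMSO libraries held 0.0294 and 0.0538. HIST1H1T, the testis H1 gene, had means of 0.0147 with A771726, 0.0479 with leflunomide and 0.033 in DMSO, and its promoter was listed at 0 in all groups. Over the 6 H1 genes the median change was −1.05 with A771726 and −0.78 with leflunomide. Of the 4 recovered H1 genes, HIST1H1B and HIST1H1C had DMSO apart from both compounds, which overlapped each other. HIST1H1D and HIST1H1E overlapped DMSO. Both libraries thus lay below DMSO at 2 of 4 with each compound, against 56% of all genes with A771726 and 21.3% with leflunomide.

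**Figure D2:**
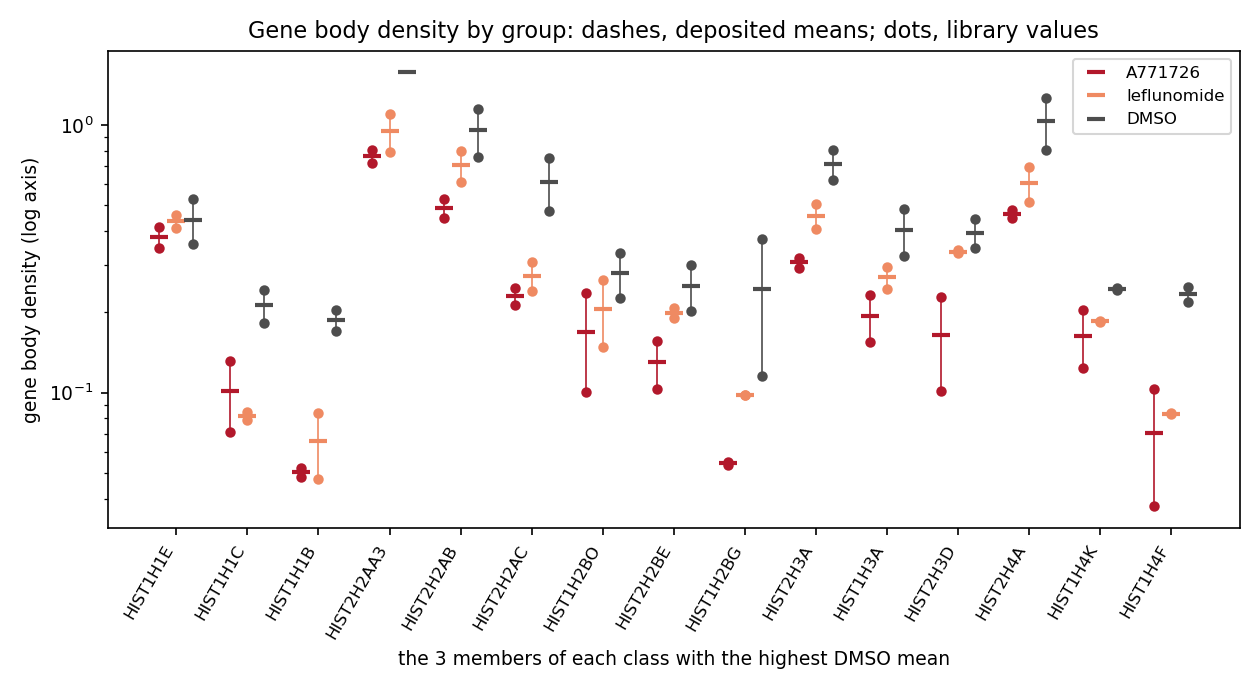
Gene body density on a log axis for the 3 genes of each class with the highest DMSO mean, in A771726, leflunomide and DMSO from left to right. Dashes are the deposited means and dots the recovered library values, joined by a line. HIST1H1E overlaps between groups, and at HIST1H1B and HIST1H1C the DMSO dots stand apart from the rest.

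H2A pairs with H2B in the nucleosome core. All 13 H2A genes lay below DMSO and below the median of all genes with each compound, with class medians of −1.11 for A771726 and −0.60 for leflunomide, and 10 of 13 were at least 2-fold lower with A771726 (18.4% of all genes). At all 11 H2A genes recovered in every library, both A771726 libraries lay below both DMSO libraries, as they did at 56% of all genes. HIST2H2AA3, a duplicated gene whose copies cannot be told apart, had the highest DMSO mean of the 55 genes, 1.57, and its means were 0.766 with A771726 and 0.947 with leflunomide.

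HIST2H2AC had pairs of 0.212 and 0.245 with A771726, 0.24 and 0.307 with leflunomide, and 0.477 and 0.75 in DMSO. Both compounds stood below DMSO without overlap, with limma log2 changes of −1.38 (−2.12 to −0.65, adjusted p = 0.126) for A771726 and −1.13 (−1.87 to −0.40, adjusted p = 0.95) for leflunomide. HIST2H2AB had 0.531 and 0.447 with A771726, 0.613 and 0.801 with leflunomide, and 0.761 and 1.15 in DMSO. Only the A771726 values of HIST2H2AB cleared DMSO, and its leflunomide pair overlapped the DMSO pair.

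HIST3H2A, from the small HIST3 locus, had 0.0406 and 0.0353 with A771726, 0.0521 and 0.0485 with leflunomide, and 0.189 and 0.117 in DMSO. Its limma log2 change was −1.91 with A771726 (−2.73 to −1.09, adjusted p = 0.126) and −1.52 with leflunomide (−2.34 to −0.71, adjusted p = 0.903). HIST1H2AB was near DMSO with leflunomide. Its libraries held 0.144 and 0.0827 with A771726, 0.295 and 0.27 with leflunomide, and 0.405 and 0.255 in DMSO. The leflunomide and DMSO values of HIST1H2AB overlapped, and both A771726 values lay below all 4 others.

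At 3 more H2A genes both compounds stood clear of DMSO. Over all genes, both libraries lay below DMSO at 56% with A771726 and at 21.3% with leflunomide. The share of all genes with both compounds below was not counted. HIST1H2AJ had 0.0506 and 0.0598 with A771726, 0.053 and 0.115 with leflunomide, and 0.176 and 0.199 in DMSO. HIST1H2AL had 0.114 and 0.0592, 0.125 and 0.11, and 0.229 and 0.26 with A771726, leflunomide and DMSO. HIST1H2AI, a gene with less distance, had 0.355 and 0.172 with A771726, 0.375 and 0.479 with leflunomide, and 0.629 and 0.492 in DMSO. At the next 4 genes the A771726 values alone lay below DMSO. HIST1H2AG had 0.122 and 0.07, 0.138 and 0.193, and 0.388 and 0.146 with A771726, leflunomide and DMSO. HIST1H2AK had 0.146 and 0.0416, 0.165 and 0.171, and 0.243 and 0.168 in the same groups. HIST1H2AM had 0.301 and 0.141 with A771726, 0.456 and 0.368 with leflunomide, and 0.436 and 0.48 in DMSO, so its leflunomide values lay around DMSO. HIST1H2AD had 0.188 and 0.279, 0.231 and 0.34, and 0.331 and 0.497 with A771726, leflunomide and DMSO. HIST1H2AC, without recovered DMSO libraries, had means of 0.172, 0.192 and 0.291.

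H2B genes had the lowest class median with each compound, −1.53 for A771726 and −0.85 for leflunomide. With A771726, 8 of 15 were at least 2-fold lower (18.4% of all genes), a smaller share than the 10 of 13 H2A genes. HIST1H2BM, printed above with its CCAAT and octamer motifs, had pairs of 0.0138 and 0.0179 with A771726, 0.043 and 0.0524 with leflunomide, and 0.142 and 0.0992 in DMSO. The 3 groups of HIST1H2BM did not overlap, and the leflunomide pair lay between the others. Its limma log2 change was −2.75 with A771726 (−3.57 to −1.93, adjusted p = 0.0898), the smallest adjusted p of the 42 genes, and −1.28 with leflunomide (−2.10 to −0.47, adjusted p = 0.95).

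HIST1H2BF had means of 0.0046 with A771726, 0.0103 with leflunomide and 0.0587 in DMSO. Its recovered values were 0.0072 and 0.0133 with leflunomide against 0.0199 and 0.0976 in DMSO, so the DMSO mean rested mainly on 1 library. At the other end HIST1H2BB had 0.0279 and 0.0553 with A771726, 0.0242 and 0.0336 with leflunomide, and 0.0399 and 0.0618 in DMSO, and only the leflunomide pair cleared DMSO. HIST1H2BO, the H2B gene with the highest DMSO mean, had 0.101 and 0.235, 0.147 and 0.263, and 0.227 and 0.332 with A771726, leflunomide and DMSO, which overlapped throughout. HIST2H2BE had 0.156 and 0.103, 0.19 and 0.206, and 0.201 and 0.301 in the same groups, where the A771726 pair alone lay apart from DMSO. HIST1H2BG had 0.0551 and 0.0538 with A771726 and 0.0977 and 0.098 with leflunomide, both below DMSO at 0.373 and 0.116.

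The other H2B genes were of the same 2 kinds. Both compounds stood clear of DMSO at HIST1H2BJ, HIST1H2BL and HIST3H2BB. Of all genes, 56% lay below DMSO in both A771726 libraries and 21.3% in both leflunomide libraries. HIST1H2BJ had 0.0531 and 0.0792 with A771726, 0.118 and 0.0851 with leflunomide, and 0.214 and 0.176 in DMSO. HIST1H2BL had 0.0243 and 0.0298, 0.0238 and 0.0485, and 0.0583 and 0.108 in the same groups, and HIST3H2BB had 0.029 and 0.0339, 0.0286 and 0.048, and 0.153 and 0.0495. At HIST3H2BB leflunomide only just cleared the lower DMSO value. At HIST1H2BC, HIST1H2BI and HIST1H2BN the A771726 pair alone lay below DMSO. Their log2 changes with A771726 were −1.78, −0.64 and −0.71, against −0.52 over all genes. HIST1H2BC had 0.0419 and 0.0506 with A771726, 0.0862 and 0.101 with leflunomide, and 0.0696 and 0.259 in DMSO. HIST1H2BI had 0.0506 and 0.0778, 0.126 and 0.0503, and 0.0837 and 0.119 with A771726, leflunomide and DMSO, and HIST1H2BN had 0.0596 and 0.0733, 0.0595 and 0.107, and 0.142 and 0.0792. Not recovered in every library were HIST1H2BD, with means of 0.101, 0.137 and 0.137, HIST1H2BH, with 0.0145, 0.0326 and 0.0932, and HIST2H2BC, with 0.0871, 0.0745 and 0.136.

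Among the H3 genes, 8 of 12 were at least 2-fold lower with A771726 (18.4% of all genes). The class medians were −1.18 for A771726 and −0.61 for leflunomide. HIST2H3A, a duplicated gene, had 0.293 and 0.32 with A771726, 0.407 and 0.508 with leflunomide, and 0.623 and 0.807 in DMSO, in 3 separate steps. Its limma log2 change was −1.21 (−1.86 to −0.56, adjusted p = 0.126) with A771726 and −0.64 (−1.29 to 0.01, adjusted p = 0.982) with leflunomide. HIST1H3A had 0.155 and 0.231, 0.295 and 0.244, and 0.324 and 0.485 with A771726, leflunomide and DMSO, again in separate steps. HIST2H3D had 0.228 and 0.101 with A771726, 0.332 and 0.341 with leflunomide, and 0.446 and 0.346 in DMSO, with the leflunomide pair just under the lower DMSO value.

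HIST1H3B, HIST1H3G and HIST1H3H had both compounds clear of DMSO. Each compound taken alone did so at 56% (A771726) and 21.3% (leflunomide) of all genes, counting those below DMSO. HIST1H3B, whose promoter is printed above, had 0.0682 and 0.0178 with A771726, 0.0574 and 0.0996 with leflunomide, and 0.168 and 0.147 in DMSO. HIST1H3G had 0.0729 and 0.0593, 0.145 and 0.121, and 0.182 and 0.325 with A771726, leflunomide and DMSO. HIST1H3H had 0.114 and 0.0947, 0.0797 and 0.149, and 0.313 and 0.243 in the same groups. HIST1H3D, with means of 0.144, 0.205 and 0.322, and HIST1H3F, with 0.0547, 0.0581 and 0.103, were not recovered in every library.

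Other H3 genes did not follow. HIST1H3C had 0.0137 and 0.113 with A771726, 0.0329 and 0.0843 with leflunomide and 0.0448 and 0.0691 in DMSO, so the A771726 libraries of HIST1H3C spanned all the others. HIST1H3E had a higher mean with A771726, 0.0384, than with leflunomide, 0.0173, or in DMSO, 0.0112, for log2 changes against DMSO of 1.59 with A771726 and 0.53 with leflunomide. It was the 1 histone gene at least 2-fold higher with A771726, and its A771726 libraries were not recovered. HIST3H3, the testis H3 gene, was the 1 at least 2-fold higher with leflunomide, at 0.00815, 0.0238 and 0.00985 with A771726, leflunomide and DMSO, and its promoter was listed at 0 with leflunomide and DMSO.

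H4 genes had the class medians nearest to those of all genes, −0.83 for A771726 and −0.39 for leflunomide. With A771726, 3 of 9 were at least 2-fold lower (18.4% of all genes). HIST2H4A, a duplicated gene, had 0.48 and 0.449 with A771726, 0.698 and 0.517 with leflunomide, and 0.806 and 1.26 in DMSO. Its 3 groups did not overlap, and the limma log2 change was −1.12 (−1.87 to −0.37, adjusted p = 0.148) with A771726 and −0.74 (−1.49 to 0.00, adjusted p = 0.982) with leflunomide. HIST1H4F had 0.0376 and 0.103 with A771726 and 0.083 and 0.0836 with leflunomide, all below DMSO at 0.217 and 0.248. HIST1H4K had 0.203 and 0.123, 0.184 and 0.185, and 0.241 and 0.245 with A771726, leflunomide and DMSO, a smaller distance with no overlap with DMSO. Its log2 change was −0.57 with A771726 and −0.39 with leflunomide, against −0.52 and −0.06 over all genes. HIST1H4I and HIST1H4E had higher means with leflunomide than in DMSO (0.104 and 0.0759 for HIST1H4I, 0.289 and 0.232 for HIST1H4E), within DMSO libraries that held 0.111 and 0.0406 for HIST1H4I and 0.132 and 0.333 for HIST1H4E.

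HIST1H4A had 0.045 and 0.0183 with A771726, 0.0294 and 0.0557 with leflunomide, and 0.0703 and 0.122 in DMSO, with both compounds below DMSO. HIST1H4B had 0.0964 and 0.138, 0.136 and 0.167, and 0.246 and 0.173 with A771726, leflunomide and DMSO, where leflunomide only just cleared the lower DMSO value. HIST1H4C had 0.0716 and 0.142 with A771726, 0.149 and 0.253 with leflunomide, and 0.195 and 0.217 in DMSO, and its leflunomide values spanned DMSO. HIST4H4, the single gene on chromosome 12, had 0.0974 and 0.121 with A771726, 0.167 and 0.159 with leflunomide, and a DMSO mean of 0.146.

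The genomic cluster made little difference to the medians of gene body change. The 43 HIST1 genes had a median change of −1.08 with A771726 and −0.60 with leflunomide, and the 12 genes of HIST2 to HIST4 had −1.09 and −0.69. At least 2-fold lower with A771726 were 26 of 43 and 7 of 12 (18.4% of all genes). Gene body densities themselves differed, with medians of 0.0664, 0.101 and 0.195 at HIST1 and 0.147, 0.236 and 0.324 at HIST2 to HIST4 with A771726, leflunomide and DMSO. The other measures were less alike. The median promoter change was −0.304 at HIST1 and −0.879 at HIST2 to HIST4 with A771726, and 0.186 and 0.0156 with leflunomide. The median ratio change was 0.945 and 0.413 with A771726, and 0.97 and 0.35 with leflunomide. No test compared the classes or the clusters, since their members share libraries. Histone coding regions are close copies of one another, and how the authors assigned reads that match several genes, and whether strand was used, is not given in the sources used here, so single gene values may hold reads of a neighbour or copy.

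In 9 head-to-head pairs of an H2A and an H2B gene the 300 base windows overlapped by 253 to 293 bases. In these pairs the H2B change lay below the H2A change in 5 of 9 with A771726 and 7 of 9 with leflunomide. In the pair HIST1H2AJ and HIST1H2BM, which overlap in the printed stretch, the log2 changes were −1.72 and −2.76 with A771726 and −1.14 and −1.30 with leflunomide. In the pair HIST1H2AD and HIST1H2BF they were −0.82 and −3.15 with A771726 and −0.53 and −2.29 with leflunomide. In the HIST3H2A and HIST3H2BB pair the order was the other way, with −1.95 and −1.62 with A771726 and −1.56 and −1.35 with leflunomide.

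A771726 and leflunomide, which differ by the opened isoxazole ring, were compared at the same dose and time. The median histone change between them was −0.48 (A771726 over leflunomide), and all genes tested had a median of −0.47. The change was below 0 at 50 of 55 (84.9% of all genes), with 9 of 55 at least 2-fold lower (12.3% of all) and 1 at least 2-fold higher (0.982%). Relative to the median of all genes, 28 of 55 lay below it, 2 of them at least 2-fold (3.72% of all), and 1 lay at least 2-fold above it (3.13%). The histone genes therefore did not stand apart from the rest here. limma called 0 of 42 (0% of all genes), with a smallest adjusted p of 0.318 and 6 of 42 lower at an unadjusted p under 0.05 (15.1% of all) and 0 higher (0.342%), and 40 of 42 estimates were below 0 (88%). Both A771726 libraries lay below both leflunomide libraries at 20 of 42 genes (55.8% of all) and above both at 0 (2.11%).

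The genes farthest apart between the compounds were HIST1H1T, with the means above and a log2 change of −1.56, HIST1H3J (−1.54) and HIST1H2BM (−1.46). HIST1H3J had 0.0409 and 0.0236 with A771726, 0.105 and 0.0912 with leflunomide, and 0.0909 and 0.167 in DMSO. The leflunomide values of HIST1H3J overlapped DMSO, and the A771726 values lay below all others (A771726 over leflunomide −1.58, 95% interval −2.56 to −0.60, limma adjusted p = 0.318). HIST1H2AB had the same order, with a limma change of −1.35 (−2.20 to −0.50, adjusted p = 0.318). In the other direction stood HIST1H3E (1.05), HIST1H2BB (0.49) and HIST1H1C (0.30), where the limma interval ran from −0.57 to 1.44 for HIST1H2BB and from −0.61 to 1.09 for HIST1H1C.

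At promoters the histone genes showed no such displacement with leflunomide. The summed promoter density of the 55 genes was 14.5 with A771726, 21.6 with leflunomide and 20.6 in DMSO. Of the 54 genes past the promoter filter, the median log2 change was −0.40 with A771726 and 0.03 with leflunomide, against 0.00 and 0.19 over all genes. Relative to the median of all genes the leflunomide value was −0.16, the opposite sign, with 6 of 54 at least 2-fold below it (19.6% of all) and 2 above it (23%). With A771726, 16 of 54 were at least 2-fold lower (26.5% of all genes) and 2 higher (21.1%), and 38 of 54 were below 0 (50%). With leflunomide, 5 of 54 were at least 2-fold lower (16.3% of all) and 4 higher (29.4%), and 24 of 54 were below 0 (41%). Among the 42 recovered genes, 28 limma estimates were below 0 with A771726 (54% of all) and 19 with leflunomide (41.4%). Between the compounds the median was −0.51 (−0.29 over all genes), with 12 of 54 at least 2-fold lower (29.6% of all) and 1 higher (13.7%).

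limma called 0 of 42 histone promoters with A771726 (0.0581% of 5166 genes were called), 0 of 42 with leflunomide (0.0194%) and 0 of 42 between the compounds (0%). At an unadjusted p under 0.05, 4 of 42 were lower with A771726 (2.44% of all genes), 0 with leflunomide (0.387%) and 4 between the compounds (2.28%), and 0 were higher in any of these. HIST3H2A had promoter values of 0.0481 and 0 with A771726, 0.0694 and 0.166 with leflunomide, and 0.34 and 0.52 in DMSO, and its groups with a compound both lay below DMSO. HIST1H1C had 0.433 and 0.125 with A771726, 0.798 and 0.677 with leflunomide, and 0.583 and 0.728 in DMSO, where the A771726 libraries alone stood lower (limma −1.40, adjusted p = 0.994). HIST1H4F had 0.087 and 0.165, 0.545 and 0.56, and 0.341 and 0.475 with A771726, leflunomide and DMSO, with the leflunomide pair above DMSO and the A771726 pair below it.

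HIST1H2AB was among the highest with both compounds, with promoter values of 0.12 and 0.344 with A771726, 0.347 and 0.188 with leflunomide, and 0.131 and 0.052 in DMSO. Its leflunomide libraries lay above both DMSO libraries and its A771726 libraries did not. HIST4H4 had promoter means of 0.275, 0.717 and 0.163 with A771726, leflunomide and DMSO. HIST2H2BC had 0.00645, 0.188 and 0.13, and HIST3H3 had 0.024 with A771726 and was listed at 0 in the other groups. One promoter read was worth between 0.0241 and 0.052 density units, depending on the library, so the lowest of these values rest on a few reads or less.

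**Figure D3:**
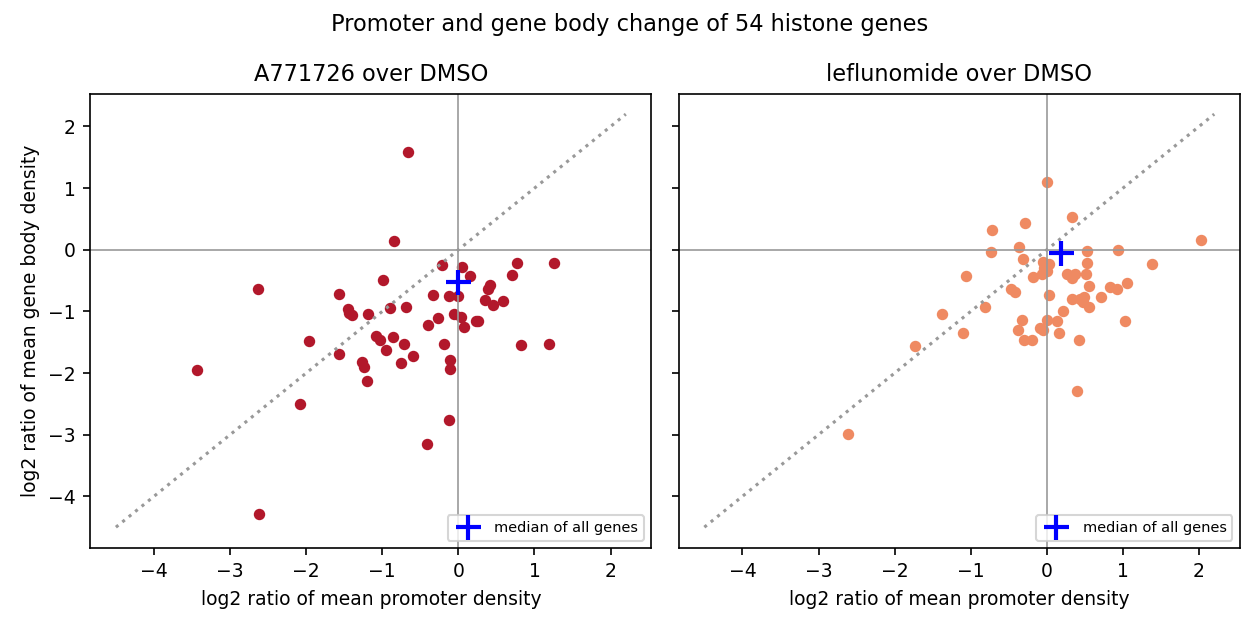
Log2 change of mean gene body density (vertical) against that of mean promoter density (horizontal) for 54 histone genes, with A771726 on the left and leflunomide on the right, each over DMSO. The blue cross is the median of all genes and the dotted line marks equal change. With leflunomide the dots spread around 0 horizontally and lie mostly below 0 vertically, and with A771726 they reach further left and down.

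The traveling ratio, read as a measure of how much polymerase stays near the promoter, was higher at many histone genes with each compound. Over the 48 genes with a finite ratio above 0 in every group, the median ratio was 2.63 with A771726, 2.54 with leflunomide and 1.68 in DMSO, against 3.21, 2.94 and 2.65 over all 5138 genes. The median log2 change was 0.82 with A771726 and 0.88 with leflunomide, against 0.41 and 0.27 over all genes. With A771726, 21 of 48 were at least 2-fold higher (34.4% of all genes) and 4 lower (17.1%), and relative to the median of all genes 10 lay 2-fold above it and 7 below it (24% of all genes each), shares that are not above those of all genes. With leflunomide, 21 of 48 were at least 2-fold higher (27.7% of all) and 1 lower (15.4%), and 17 and 4 relative to that median (21.1% and 20.7%). Between the compounds the median was −0.06 (0.15 over all genes), with 9 of 48 at least 2-fold higher (26.9% of all) and 10 lower (20.9%).

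No row of the deposited tables had a DMSO ratio above 7.5, and no such limit held in the other groups, so a ratio above that limit could occur with A771726 or leflunomide only. limma called 0 of 42 histone ratios in each of the 3 comparisons (0% of 4912 genes), with 0 at an unadjusted p under 0.05 in either direction. Few of all genes reached that p either. With A771726 4.46% were higher and 0.448% lower, and with leflunomide 2.26% and 0.346%. Between the compounds the shares were 1.83% and 0.814%. HIST1H2BM had ratios of 11.7 and 0 with A771726, 3.37 and 0.485 with leflunomide, and 0.925 and 0.473 in DMSO, so its higher A771726 mean came from 1 library while the other had no promoter reads. HIST1H2AB had 0.837 and 4.16 with A771726, 1.18 and 0.697 with leflunomide, and 0.324 and 0.204 in DMSO, with both compounds above DMSO in each library. HIST2H4A had 2.4 and 2.58 with A771726, 1.84 and 3.78 with leflunomide, and 0.898 and 0.98 in DMSO, also without overlap. HIST3H2A went the other way with A771726, at 1.18 and 0, against 1.33 and 3.42 with leflunomide and 1.8 and 4.44 in DMSO. HIST1H4E had 2.64 and 2.17, 2.12 and 1.29, and 4.95 and 2.85 with A771726, leflunomide and DMSO, with DMSO highest. Among these 48 genes HIST1H4A had the highest mean ratio with A771726 and in DMSO, at 21.4 with A771726, 10.1 with leflunomide and 5.93 in DMSO. Its A771726 libraries held 1.81 and 41, against 9.5 and 2.35 in DMSO, so its A771726 mean came from 1 library. Among other genes at the ends of the range, HIST1H2BL had mean ratios of 2.08, 2.15 and 0.376, HIST4H4 2.66, 4.37 and 0.898, HIST1H4I 4.62, 1.19 and 2.26, and HIST2H2BC 0.0551, 2.71 and 0.888 with A771726, leflunomide and DMSO. The A771726 libraries overlapped DMSO at HIST1H2BL (3.62 and 0.537 against 0.751 and 0) and at HIST1H4I (2.39 and 6.84 against 1.97 and 2.56).

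**Figure D4:**
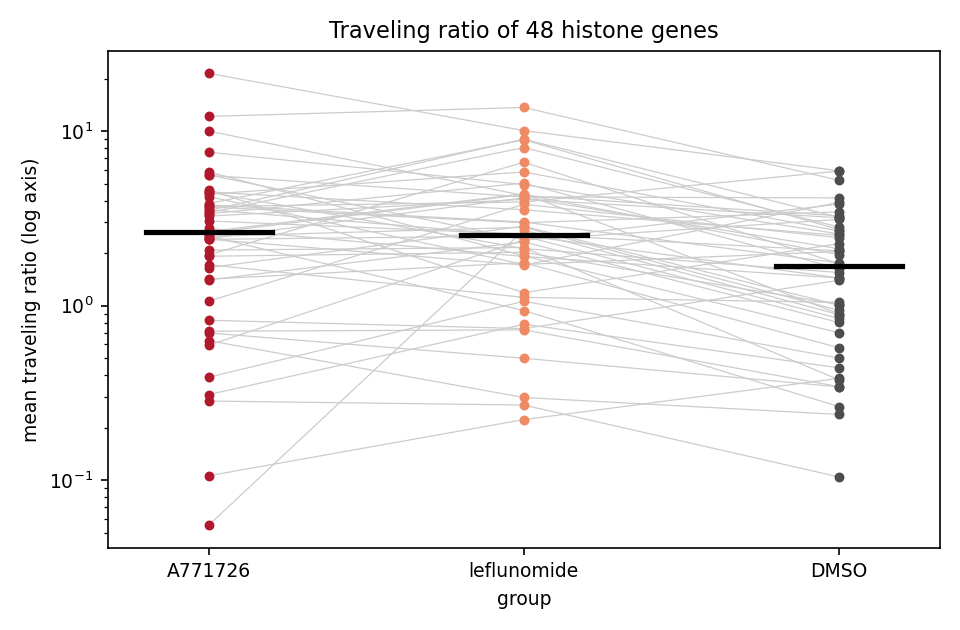
Mean traveling ratio (log axis) of 48 histone genes with A771726, leflunomide and DMSO from left to right. Each dot is a gene, gray lines join the same gene, and black bars are medians, at 2.63, 2.54 and 1.68.

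Genes that act on histone genes or stand in for them were described alongside. Of 12 replication-independent histone variant genes, which are expressed outside S phase as well, 8 were in the tables and 7 passed the filter, with a median gene body change of −0.94 with A771726 and −0.17 with leflunomide. With A771726, 3 of the 7 were at least 2-fold lower (18.4% of all genes), named here with their changes: CENPA, the centromeric H3 (−1.96), H2AFZ (−1.11) and H2AFX (−1.07), the H2A form phosphorylated at DNA breaks. With leflunomide 0 of 7 were at least 2-fold lower (4.38% of all genes), and 1 of 7, H2AFJ (1.50), was at least 2-fold higher (1.83%). H3F3B, which encodes the variant H3.3, had means of 0.115, 0.147 and 0.222 with A771726, leflunomide and DMSO.

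Of 21 genes listed for the histone locus body and histone messenger RNA 3′ end processing, 15 passed the filter, and their median change was −0.36 with A771726 and −0.06 with leflunomide, near or above the medians of all genes. NPAT had means of 0.0118, 0.0169 and 0.0158 and SLBP 0.0225, 0.0411 and 0.0305 with A771726, leflunomide and DMSO. LSM10, a subunit of the U7 particle that cuts histone transcripts, was the 1 gene of the 15 at least 2-fold lower with A771726 (−1.74). Of 12 cyclin, CDK2 and E2F genes past the filter, CCNA2 (−1.80) and GMNN (−1.14) were at least 2-fold lower with A771726, 2 of 12, a share near the 18.4% of all genes, and none with leflunomide. Of 15 histone chaperone and assembly genes past the filter, the importin gene IPO4 (−2.02) and MCM2 (−1.16) were at least 2-fold lower with A771726, 2 of 15 against 18.4% of all genes, and none with leflunomide. The medians of these lists were −0.48 and −0.53 with A771726 and −0.14 and −0.04 with leflunomide. For gene bodies, limma called 0 members of these 4 lists in any comparison. With A771726 against DMSO, the gene bodies at an unadjusted p under 0.05 were all lower (22.4% of all genes): 3 of 4 variants, 2 of 13 locus body and processing genes, 3 of 9 cyclin and E2F genes and 2 of 13 chaperones. With leflunomide against DMSO there were 0 gene bodies in every list at that p.

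Most histone genes are short, with a median length of 494 bases in GRCh38.p14 and a range from 387 to 13229. Of the other protein-coding genes under 1000 bases, 38 passed the filter, with a median change of −0.63 with A771726 and −0.17 with leflunomide. Among these 38, 11 were at least 2-fold lower with A771726 and 8 with leflunomide, against 33 and 16 of the 55 histone genes and 18.4% and 4.38% of all genes. For the 14 short genes with recovered libraries, the median limma change was −0.08 with A771726, with 7 of 14 below 0, and −0.06 with leflunomide, with 8 of 14 below 0. The part of gene length in the histone values was not tested.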

How the data were processed

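GRO-seq of A375 cells was deposited as tables of group means. Per the file headers, the authors averaged promoter and gene body signal (read densities) and the traveling ratio over the replicates of a group, and gave the fold of the ratio over DMSO. Bowtie 0.12.9, bedtools and hg18 are named in the submitters' processing notes. Window limits, scaling and depth were not given in the sources used here. A771762 in the headers was taken as A771726.

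Members and lists were chosen with earlier results of these data known. The lowest 30% of row means were left out, and log2 ratios were taken after adding 0.00225 (gene body) or 0.01735 (promoter), which understates the change of low genes. Library values were recovered, after the data were seen, by solving the 2 densities and the ratio of a group for its pair of libraries, to 4 decimals. Single solutions were found for 98.1% of eligible rows with A771726, 98.8% with leflunomide and 98.5% in DMSO, and 1.06%, 0.379% and 0.461% could be solved after the ratio was moved. Promoter values were whole reads at 46.1%, 38.8% and 41.5% of histone values, against 79.1%, 76.8% and 78.7% of all, in the same order. limma 3.58.1 (trend, robust, all 6 libraries) was fitted on log2 density, and the fits on promoters and ratios were added after the data were seen. Genes are named by a rule: the 3 highest of each class in DMSO, the 3 highest and lowest gene body changes per comparison, the 2 highest and lowest for promoter and ratio, and genes recovered in all libraries. Genes not recovered in all libraries are named by their means to complete a class.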

Additional observations from a re-analysis of the deposited data

How the results depend on the processing

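Of the results for whole groups of genes, 74 values under an alternative stayed on the same side and, for medians, moved by less than 1 SD between libraries, 3 moved further and 1 reversed. That SD is wide for promoters and ratios: relative to the median of all genes the A771726 ratio median was 0.41 against 0.82, and the promoter median between the compounds −0.22 against −0.51. Relative to the median of all genes, the gene body median of histone genes was −0.57 with A771726 against DMSO and −0.0060 with A771726 against leflunomide, and the leflunomide promoter median reversed to −0.16. By construction these 3 take out the shift of all genes. Leaving out 1 library at a time, limma called 0 to 2 histone genes with A771726 against DMSO. The 2 came without A771726 library 1 and were HIST1H2AK (−2.22, adjusted p = 0.0468) and HIST1H3B (−2.99, adjusted p = 0.0448), out of 88 calls over 3468 genes. In the other comparisons the calls ran from 0 to 0. Over the 15 histone genes with every library known, the gene body median without 1 library ran from −1.76 to −1.21 with A771726 (−1.39 with all libraries), from −0.76 to −0.52 with leflunomide (−0.39 with all, nearer 0 than any of these, and −0.76 without DMSO library 1) and from −0.86 to −0.44 between the compounds (−0.49 with all), the last being 0.0064 with libraries centred on their medians. The promoter median ran from −1.04 to 0.0713 with A771726 and from −0.29 to 0.38 with leflunomide, so its sign depends on single libraries. The ratio median ran from 0.46 to 1.46 with A771726 and from 0.59 to 1.14 with leflunomide. No paired analysis was possible because the deposited columns carry no replicate letters and the recovered libraries cannot be matched to those in the labels.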
